A study of Mus musculus with 16 samples.

Results

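Expression of 8 genes of the smooth muscle and non-muscle contractile apparatus was examined in ventricles of mouse embryos at E11.5. The 8 were Lmod1, Csrp1, Cnn2, Myh10, Myl6, Pfn1, Enah and Utrn. The embryos had a conditional knockout of Atf4 aimed at cardiomyocytes or were controls, and loss of Atf4 was not measured here. The genes were chosen by name, with earlier results of these data known, and all 8 were found among the 5921 genes of the table used here. All 8 passed the filter on low values (a mean of at least 1 TPM, a unit that scales each gene's reads by transcript length and by the library's total, over the 16 libraries) and were among the 2620 genes tested. RNA was sequenced in 4 groups of 4 libraries. For the exon 2-3 line the floxed allele was Atf4 fl(e2/3), with exons 2 and 3 between loxP sites, and for the exon 2 line it was Atf4 fl(e2), with exon 2 alone. In each line, embryos with the conditional knockout (cKO), made by the cardiomyocyte-restricted Xmlc2-Cre transgene, were compared with their own controls. Cells other than cardiomyocytes are not a target of this Cre. The genotype label reads C57BL/6 WT for every sample, and whether the controls carried a floxed allele or the transgene is not given in the sources used here. No drug or other agent was applied to any group. Batch 1 of the labels holds the exon 2-3 line and batch 2 the exon 2 line, and the effects of line and batch cannot be told apart.

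Actin filaments and myosin II generate force in smooth muscle and in non-muscle cells, where they also shape the cell cortex and drive cell division. In the embryonic heart, these genes are used by immature cardiomyocytes as well as by endocardial, epicardial and mesenchymal cells, and several genes of smooth muscle are transiently active in early cardiomyocytes. Many genes of this apparatus are targets of serum response factor, which binds the CArG box and is assisted by myocardin and myocardin-related factors. Lmod1 (leiomodin 1) starts new actin filaments and is best known from smooth muscle. Csrp1 encodes a LIM domain protein that binds alpha-actinin and zyxin, and Cnn2 encodes calponin 2, an actin-binding protein that restrains actomyosin. Myh10 encodes the heavy chain of non-muscle myosin IIB, and Myl6 an essential light chain of smooth muscle and non-muscle myosin. Pfn1 (profilin 1) supplies actin monomers for filament growth, and Enah (Mena) speeds growth at filament ends. Utrn encodes utrophin, a relative of dystrophin that ties actin to the membrane.

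The promoters of the 8 genes were looked up to see whether they share the CArG box. RefSeq (GRCm38.p6) gave 10 start sites for the 8 genes, with windows of 300 bases from 250 before to 50 after the start. A CArG box lay in 2 of the 10 windows, those of Cnn2 and of one of the Myl6 starts, against 535 of 32851 RefSeq promoters (1.63%) and 19 of 2355 promoters of genes tested (0.807%). The pattern reads the same on both strands, so a single search covers both. The windows are shown for these starts and for Lmod1, the gene that changed, 5′ to 3′ on the gene's strand, with the CArG box in capitals. The Cnn2 window is chr10:79988350-79988649 on the plus strand, and its box began 56 bases before the start site. The Myl6 window is chr10:128492960-128493259 on the minus strand, and its box began 50 bases before the start site. The Lmod1 window is chr1:135324563-135324862 on the plus strand and held no exact match. Only exact matches to the pattern (CC, a run of A or T, then GG) were counted. Near matches, such as ctttaaaagg and ctaaatttgg in the Lmod1 window, were left out, so a missing match does not show that no such site is there.
Cnn2: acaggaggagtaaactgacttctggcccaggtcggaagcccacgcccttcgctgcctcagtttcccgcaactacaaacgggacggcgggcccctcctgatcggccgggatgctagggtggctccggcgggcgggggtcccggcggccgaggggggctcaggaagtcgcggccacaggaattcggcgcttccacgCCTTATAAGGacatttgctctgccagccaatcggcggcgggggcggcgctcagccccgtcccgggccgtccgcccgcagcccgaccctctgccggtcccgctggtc
Myl6: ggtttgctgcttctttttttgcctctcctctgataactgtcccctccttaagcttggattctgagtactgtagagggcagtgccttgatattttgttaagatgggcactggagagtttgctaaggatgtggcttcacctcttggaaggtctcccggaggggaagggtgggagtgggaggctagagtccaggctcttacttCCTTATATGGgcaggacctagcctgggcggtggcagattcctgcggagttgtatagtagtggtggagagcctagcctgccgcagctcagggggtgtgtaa
Lmod1: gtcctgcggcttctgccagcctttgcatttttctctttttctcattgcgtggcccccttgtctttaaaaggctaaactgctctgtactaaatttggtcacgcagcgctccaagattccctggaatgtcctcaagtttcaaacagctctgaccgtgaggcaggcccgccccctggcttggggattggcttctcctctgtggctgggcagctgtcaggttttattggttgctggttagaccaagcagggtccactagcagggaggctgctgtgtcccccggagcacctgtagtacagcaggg
A match describes letters only, and no binding was measured.

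The table used here covers chromosomes 1 and 10 and chromosome 11 up to position 106501211, so Atf4 itself and the other genes of the apparatus elsewhere were not analysed here, and every direction rests on the labels. Depth behind single values is unknown, since TPM does not keep it. Libraries of a group correlated with Pearson's r between 0.982 and 0.992 across the genes tested. With limma and an adjusted p under 0.05, 176 genes (6.72%) were called for cKO against control in the exon 2-3 line, 2 (0.0763%) for the same comparison in the exon 2 line and 62 (2.37%) for the difference between the lines' effects. The first count lay between 70 and 100 when exon 2-3 control replicate 1 or 2 or any of the 4 cKO replicates was left out. The second was 4 without exon 2 control replicate 3. The third was 36 without exon 2 cKO replicate 2, 37 without exon 2 control replicate 4, 38 without exon 2 cKO replicate 4 and 41 without exon 2-3 cKO replicate 3. Markers of cardiomyocytes, the cells that the Cre targets, were high throughout. Tnnt2, Tnni1, Myl7, Pln, Tcap and Hey2, the 6 of 17 markers held, summed to between 8193 and 13088 TPM in the 16 libraries. Blood markers (8 of 13 held) summed to between 1586 and 11368 TPM, with both extremes in the exon 2-3 cKO.

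Lmod1, 1 of the 8 genes, rose in the exon 2-3 line, where its mean was 2.04 times as high in cKO as in controls, against 4.16% of all genes called higher. None of the 8 was called in the exon 2 line. TPM, which is corrected for transcript length, was used to rank the levels. In the exon 2-3 controls Myl6 stood highest at 1508 ± 94.5 TPM (SD, n = 4 in this and every other group), followed by Pfn1 at 1126 ± 120 TPM, Csrp1 at 422 ± 28.3 TPM, Cnn2 at 348 ± 26.0 TPM and Myh10 at 165 ± 12.8 TPM. Enah at 25.0 ± 1.33 TPM and Utrn at 21.3 ± 1.81 TPM were lower, and Lmod1 was lowest at 1.93 ± 0.349 TPM. In these controls each gene's libraries lay clear of the next gene's, except for Enah and Utrn. Those 2 overlapped in all 4 groups. Csrp1 and Cnn2 also overlapped in the exon 2-3 cKO, Pfn1 and Csrp1 in the exon 2 controls, and Myl6 and Pfn1 in the exon 2 cKO. Enah and Utrn exchanged places in the exon 2 controls (27.9 ± 6.29 and 32.7 ± 2.83 TPM), and the order of the other 6 genes was the same in all 4 groups.

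**Figure D1:**
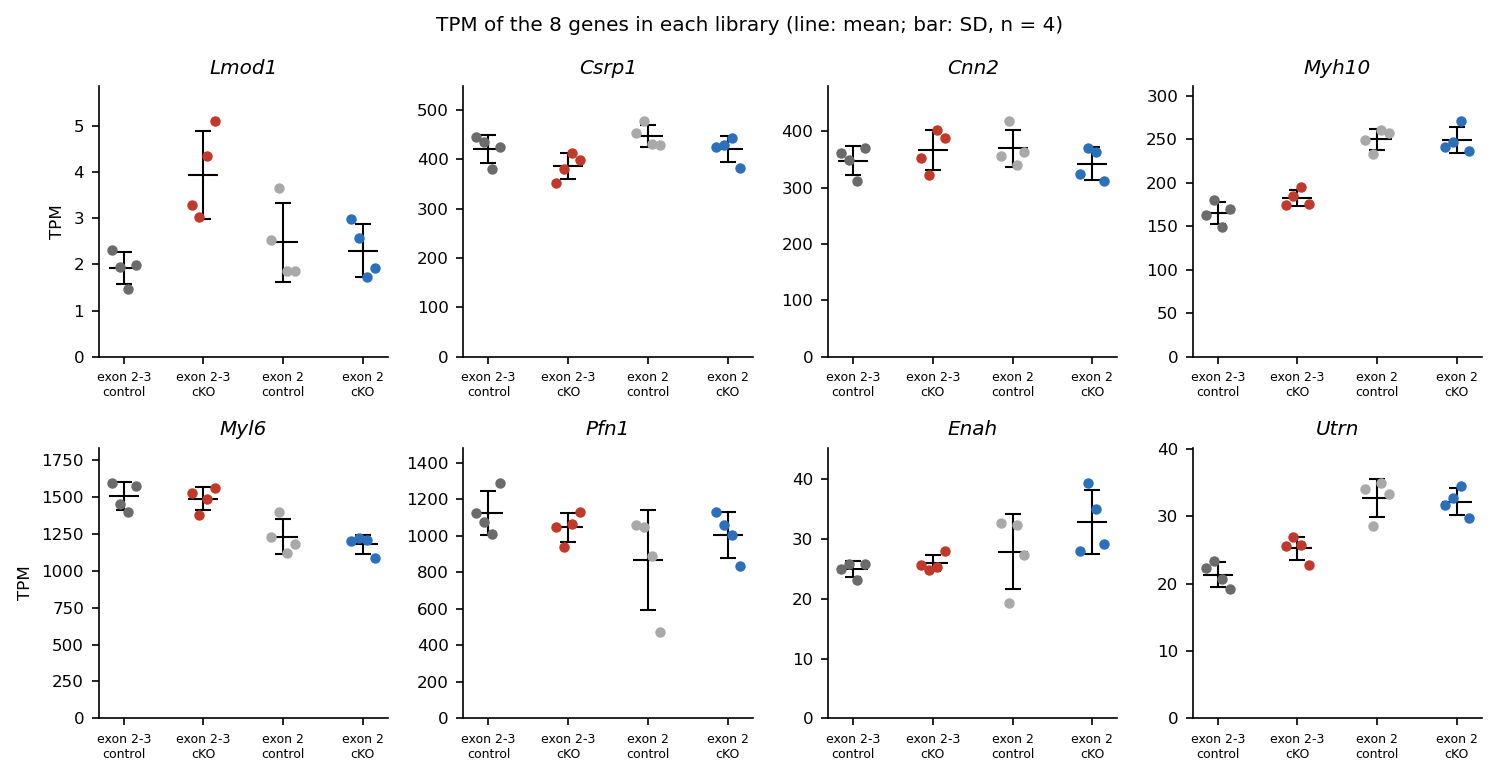
TPM of the 8 genes in each library, in 1 panel per gene with its own axis from 0, by group, with replicates 1 to 4 from left to right (line: mean, bar: SD, n = 4). The 4 exon 2-3 cKO libraries of Lmod1 lie above all 4 controls of that line, Myh10 and Utrn are higher in both groups of the exon 2 line, and a single exon 2 control library is low for Pfn1.

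Lmod1 lies on chromosome 1 at 135324813 to 135368065 (GRCm38.p6, plus strand), its coding transcript in GENCODE has 3 exons, and no other row of the table overlaps it. In the exon 2-3 controls, replicates 1 to 4 had 2.31, 1.95, 1.47 and 2.00 TPM, and the cKO replicates had 3.29, 3.02, 4.34 and 5.10 TPM. Every cKO library lay above every control, and cKO replicates 3 and 4 were the highest. The difference was 0.74 on the log2(TPM + 1) scale, which understates the change of so low a gene (SE 0.15, 95% interval from 0.40 to 1.08, limma adjusted p 0.0220). Groups that did not overlap were seen for 1 of the 8 genes, against 14.5% of the genes tested (9.24% with cKO above control). The call was lost without cKO replicate 3 (0.70, limma adjusted p 0.0646) and without control replicate 2 (0.75, adjusted p 0.0538). It was also lost without the filter on low values, with the 5564 genes above 0 in any library tested (0.74, adjusted p 0.0816). In bulk tissue, more cells of a type and more RNA per cell cannot be told apart.

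The exon 2 libraries showed no such separation. Control replicates 1 to 4 had 2.53, 3.67, 1.86 and 1.86 TPM of Lmod1, and cKO replicates 2.98, 2.56, 1.73 and 1.92 TPM. These values overlapped, with a difference of -0.06 (SE 0.18, interval from -0.47 to 0.34, limma adjusted p 0.999). The effects of the 2 lines differed by 0.80 (SE 0.25, interval from 0.27 to 1.33), with a limma adjusted p of 0.110 for that difference, so a difference between the lines was not called.

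Markers of epicardium and mesenchyme were, like Lmod1, higher in the exon 2-3 cKO than in its controls. Of 15 such markers, 7 were held and tested (Tcf21, Col1a1, Col3a1, Col5a2, Lum, Dcn and Prrx1), all 7 were higher in the exon 2-3 cKO and 5 were called, with a median of 0.51. Of these calls, that of Col5a2 was lost in 5 of 8 fits with 1 library left out (limma adjusted p up to 0.0723) and in 2 of 9 other alternatives (up to 0.0676). Their summed level ranged from 326 to 372 TPM in the exon 2-3 controls and from 483 to 529 TPM in the cKO, and none of the 7 was at 0 in any library. Within the cKO, however, Lmod1 was highest in replicate 4, where this sum was lowest (483 TPM), and lowest in replicate 2, where the sum was highest (529 TPM). Among exon 2 libraries the sum ranged from 482 to 661 TPM in controls and from 465 to 602 TPM in cKO, at Lmod1 levels no higher than 3.67 TPM. Between these and the exon 2-3 libraries, line and batch cannot be told apart. In both exon 2 groups the replicate with the most Lmod1 had the lowest sum, and the one with the least Lmod1 had the highest. In the exon 2-3 controls, by contrast, the replicate with the least Lmod1 also had the lowest sum. Of the 4 endothelial markers held (of 14), all were higher in the exon 2-3 cKO, 0 were called by limma and 2 had an unadjusted p under 0.05. They summed to between 253 and 328 TPM in controls and between 299.6 and 346 TPM in cKO. Cardiomyocyte markers summed to between 11673 and 13088 TPM in those controls and between 11034 and 12211 TPM in the cKO, with 0 of 6 called by limma and 1 at an unadjusted p under 0.05. Blood markers had 0 of 7 called and 2 at that unadjusted p. Over all genes tested in this line, 58.5% were higher, 6.72% were called and 21.1% had an unadjusted p under 0.05. Within groups, the replicate with the most Lmod1 had the largest cardiomyocyte sum in the exon 2-3 cKO and in both exon 2 groups. It did not in the exon 2-3 controls. The part of these cell types in the change of Lmod1 was not tested.

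**Figure D2:**
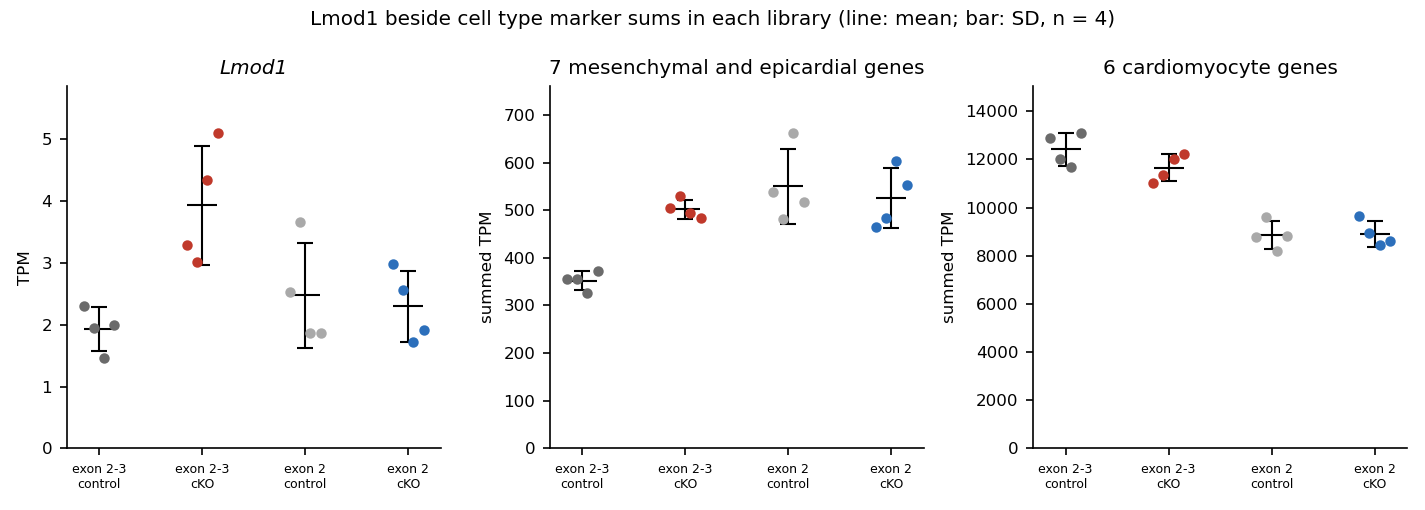
Lmod1 (TPM), the summed TPM of 7 mesenchymal and epicardial markers and the summed TPM of 6 cardiomyocyte markers in each library, by group, with replicates 1 to 4 from left to right (line: mean, bar: SD, n = 4). Both Lmod1 and the mesenchymal sum are higher in the exon 2-3 cKO than in its controls, while within that cKO the replicate with the most Lmod1 has the smallest mesenchymal sum.

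The 3 genes whose log2 values followed those of Lmod1 most closely over the 8 libraries of the exon 2-3 line were Pmp22, a membrane protein gene known from myelin (Pearson's r 0.971), Arhgef25 (0.953), and Rbms2, which encodes an RNA-binding protein (0.950). These correlations hold both groups and so include the difference between them. Pmp22 rose from 42.1 ± 2.91 to 55.4 ± 2.52 TPM (log2 fold change 0.39, limma adjusted p 0.00745). Arhgef25 had 20.8 ± 2.69 and 28.5 ± 5.66 TPM in controls and cKO (adjusted p 0.10), and Rbms2 had 43.7 ± 1.90 and 50.3 ± 1.74 TPM (adjusted p 0.0540). Of the tested genes beside Lmod1, Shisa4, 2991 bases downstream, had 17.8 ± 3.05 and 24.6 ± 3.33 TPM (log2 fold change 0.45, adjusted p 0.0674), and Timm17a, 11075 bases upstream, had 182 ± 10.2 and 177 ± 5.18 TPM (-0.04, adjusted p 0.715). Calls near the threshold depended on the settings: Shisa4 was called in 5 of 9 alternatives that kept all libraries (limma adjusted p from 0.0128 to 0.196), Rbms2 in 4 of 9 (0.0142 to 0.0883) and Arhgef25 in 1 of 9 (0.0298 to 0.267).

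Csrp1 and Cnn2, the other smooth muscle genes of the group, were abundant and were called in neither line. Csrp1 (chromosome 1, 135720063 to 135752229, plus strand, 6 exons) had 446, 436, 381 and 424 TPM in the exon 2-3 controls and 353, 382, 414 and 398 TPM in the cKO. The cKO libraries lay mostly below the controls but overlapped them through control replicate 3 (log2 fold change -0.13, interval from -0.27 to 0.02, limma adjusted p 0.321). Its exon 2 libraries had 453, 477, 432 and 429 TPM in controls and 426, 429.6, 444 and 382 TPM in cKO, again with overlap (-0.09, interval from -0.23 to 0.05). Its downstream neighbour Phlda3, a p53 target 13855 bases away that was named after its values were seen, rose by 1.13 on the log2 scale in the exon 2-3 line (limma adjusted p 8.48e-05).

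Cnn2 (chromosome 10, 79988600 to 79995400, plus strand, 6 to 7 exons) had 362, 349, 312 and 371 TPM in the exon 2-3 controls and 353, 323, 403 and 389 TPM in the cKO. The exon 2 controls had 356, 418, 341 and 364 TPM, and the cKO 325, 371, 364 and 311 TPM. Both pairs of groups overlapped, and the log2 fold changes were 0.07 (interval from -0.11 to 0.25) and -0.11 (interval from -0.28 to 0.07).

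Myh10 and Myl6, which encode partner chains of myosin II, were likewise called in neither line. Myh10 (chromosome 11, 68691915 to 68816626, plus strand) had 163, 179.7, 149 and 169.7 TPM in the exon 2-3 controls and 175, 184, 195 and 175 TPM in the cKO. Control replicates 1, 3 and 4 lay below all cKO libraries, and replicate 2 did not (log2 fold change 0.14, interval from -0.0029 to 0.29, limma adjusted p 0.247). The exon 2 libraries of Myh10 had 249.7, 233, 260.1 and 257 TPM in controls and 241, 247, 271 and 236 TPM in cKO (-0.01, interval from -0.14 to 0.12). Control and cKO overlapped there.

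Myl6 (chromosome 10, 128490859 to 128493886, minus strand) had 1598, 1457, 1401 and 1577 TPM in the exon 2-3 controls and 1527, 1379, 1489.7 and 1561 TPM in the cKO. The groups overlapped throughout (log2 fold change -0.02, interval from -0.16 to 0.12). The exon 2 controls had 1231, 1399, 1121 and 1182 TPM and the cKO 1204, 1221, 1213 and 1087 TPM (-0.06, interval from -0.23 to 0.11). Transcripts of 5 processed pseudogenes matched Myl6 transcripts at 90% identity or more over at least 300 bases, so its reads may have been shared with them and its values are uncertain. One of these, Gm5526, was in the table, at 82.7 ± 5.55 TPM in the exon 2-3 controls and 19.7 ± 0.874 TPM in the exon 2 controls. The other 7 genes had no such match.

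The ratio of Myl6 to Myh10 within a library, chosen after the values were seen, is unchanged by a factor common to a library, though not by quantile normalisation. It was 9.14 ± 0.724 in the exon 2-3 controls and 8.19 ± 0.741 in the cKO (exact two-sided permutation test, p = 0.143), and 4.96 ± 0.739 and 4.75 ± 0.250 in the exon 2 controls and cKO (exact p = 0.771). The smallest p that this permutation test could give was 0.0286. As the ratio was chosen with values in view, neither p-value comes from a planned test. Across the control groups the ratio did not overlap, at 8.11 to 9.79 in the exon 2-3 line and 4.31 to 6.00 in the exon 2 line. Since Myl6 was seen to be higher and Myh10 lower without overlap before the ratio was chosen, this is a description with no test. Gm5526 differed in the same direction.

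**Figure D3:**
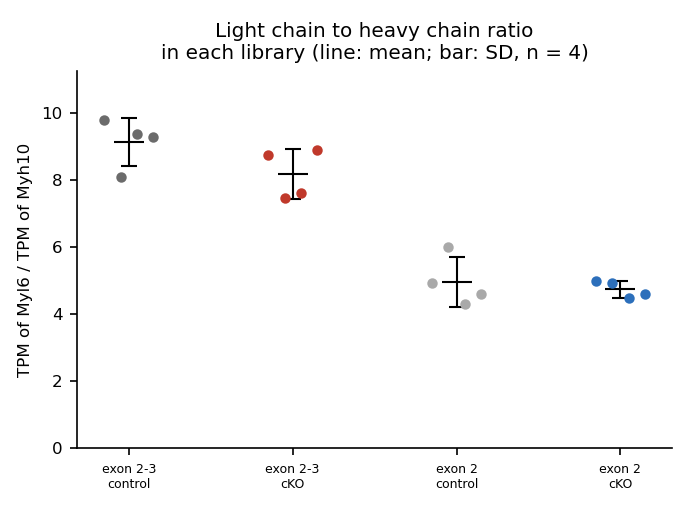
TPM of Myl6 divided by TPM of Myh10 in each library, by group, with replicates 1 to 4 from left to right (line: mean, bar: SD, n = 4, axis from 0). All 8 libraries of the exon 2-3 line lie above all 8 of the exon 2 line, and cKO and control overlap within each line.

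Pfn1 and Enah, which act in filament growth, were not called in either line. Pfn1 (chromosome 11, 70651844 to 70656799, minus strand, 2 to 3 exons) had 1127, 1074, 1011 and 1290.4 TPM in the exon 2-3 controls and 1048, 938, 1067 and 1132 TPM in the cKO, with overlap (log2 fold change -0.10, interval from -0.29 to 0.08). The exon 2 controls had 1062, 1047, 891 and 471 TPM and the cKO 1130.03, 1058, 1004 and 833 TPM. Control replicate 4, at 471 TPM, was far below the other 3 libraries. In that library only 11 of the 2620 genes tested were as low or lower, on the log2 scale, relative to the other 3 controls, counting Pfn1 at -1.08, while the median gene was at -0.04. The exon 2 difference was 0.27 with this library (interval from -0.22 to 0.77) and 0.0042 without it. Pfn1 overlaps Eno3, a muscle enolase gene on the other strand, over 3675 bases, so reads of the 2 genes may have been mixed. Eno3 was also at its lowest of the group in that library, at 215 TPM in a range up to 255 TPM, with a group mean of 234 ± 16.5 TPM. Whether mixed reads have a part in the low value of Pfn1 was not tested.

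Enah (chromosome 1, 181896384 to 182027556, minus strand) had 25.0, 25.9, 23.1 and 25.9 TPM in the exon 2-3 controls and 25.7, 24.9, 25.4 and 28.0 TPM in the cKO, with overlap (log2 fold change 0.06, interval from -0.08 to 0.20). It was more variable in the exon 2 line, at 32.7, 19.3, 32.4 and 27.3 TPM in controls and 28.0, 39.4, 35.0 and 29.2 TPM in cKO. The coefficient of variation of Enah was 5.33% in the exon 2-3 controls and 22.5% in the exon 2 controls, where replicate 2 was low. The exon 2 difference was 0.24 with a wide interval from -0.11 to 0.60, and 0.082 without control replicate 2.

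Utrn (chromosome 10, 12382187 to 12869888, minus strand) had 22.2, 23.3, 20.6 and 19.2 TPM in the exon 2-3 controls and 25.5, 26.9, 25.7 and 22.8 TPM in the cKO. The cKO libraries lay above the controls except that cKO replicate 4 fell short of control replicate 2. The difference was 0.23 (SE 0.077, interval from 0.06 to 0.41), with an unadjusted p of 0.0130 and a limma adjusted p of 0.111, so it was not called. Exon 2 controls had 34.0, 28.6, 35.0 and 33.4 TPM and cKO 31.7, 32.7, 34.4 and 29.7 TPM, with overlap (-0.02, interval from -0.19 to 0.14).

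The 8 genes did not move as a group. With the exon 2-3 deletion 5 were higher and 3 lower (median difference 0.06), against 58.5% higher and a median of 0.03 over all genes tested. At an unadjusted p under 0.05 there were 2, Lmod1 and Utrn, against 21.1% of all genes. With the exon 2 deletion 2 were higher and 6 lower (median difference -0.04), against 43.2% higher and a median of -0.01 over all genes. There, 0 of the 8 were called by limma and 0 had an unadjusted p under 0.05, against 3.21% of all genes. None had groups without overlap, against 1.83% of all genes. For the difference between the lines' effects, 0 of the 8 were called by limma and 2 had an unadjusted p under 0.05, Lmod1 and Utrn (0.26, interval from 0.03 to 0.49, adjusted p 0.266), against 15% of all genes.

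**Figure D4:**
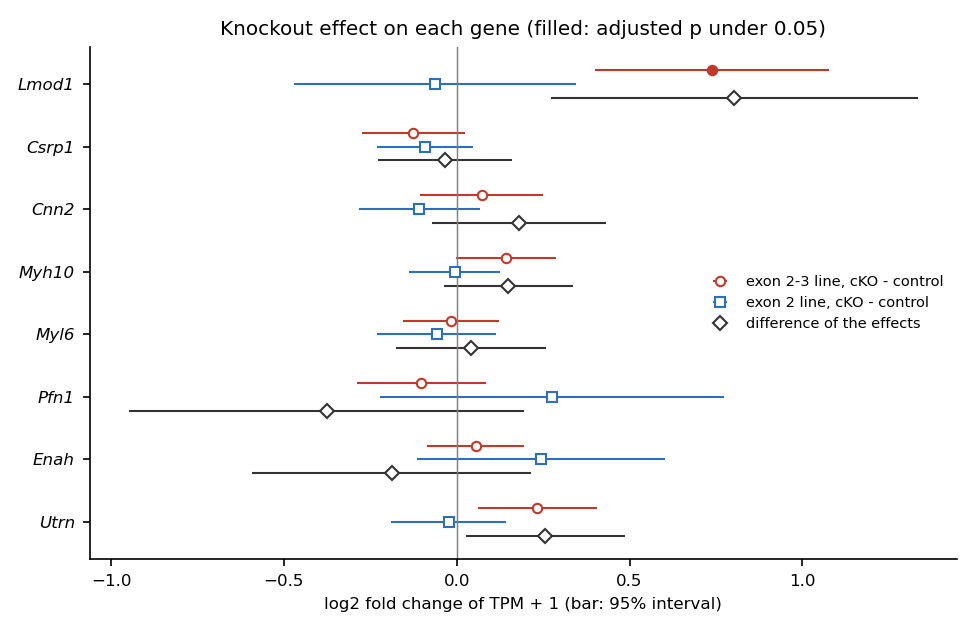
Log2 fold change of TPM + 1 between cKO and control for each of the 8 genes in the exon 2-3 line (circles) and the exon 2 line (squares), and the difference of these effects (diamonds), with 95% intervals from limma. Only the circle of Lmod1 is filled, which marks an adjusted p under 0.05.

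**Figure D5:**
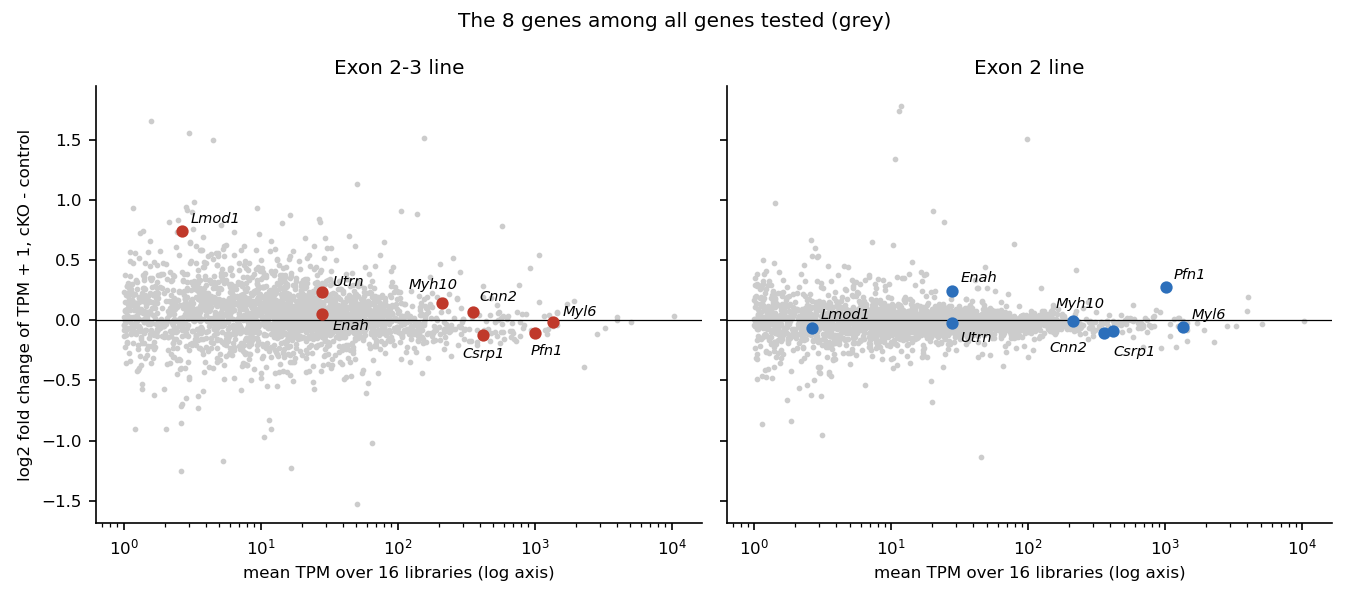
Log2 fold change of TPM + 1 (cKO - control) against the mean TPM over the 16 libraries on a log axis for the 2620 genes tested (grey), with the 8 genes coloured, in the exon 2-3 line (left) and the exon 2 line (right). Lmod1 sits near the upper edge of the cloud in the exon 2-3 line at a low mean TPM, and the other 7 genes lie between -0.13 and 0.27 in both lines.

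Other genes of the actin and myosin apparatus were read from 6 lists with 214 genes in all, of which 60 were held and 46 beside the 8 were tested. In the exon 2-3 line 3 of the 46 rose and 1 fell (8.70% called, against 6.72% of all genes). The gene that fell was Csrp2, a LIM domain relative of Csrp1, from a mean of 275 TPM (SD 18.2) to 224 TPM (SD 14.96), with a difference of -0.29 (SE 0.065, limma adjusted p 0.0291). It was the 1 called of the 9 genes of the smooth muscle list, which had a median of -0.0088. The others were Tagln2, Smtn, Smtnl2, Des, Kcnmb1, Pln, Ppp1r12b and Fhl2, and Pln also stands among the cardiomyocyte markers. Sgca (alpha-sarcoglycan), of the dystrophin and utrophin complex, rose from 24.02 ± 3.09 to 32.2 ± 2.46 TPM (0.41, adjusted p 0.0311), and Lamc1, a laminin chain that this complex can bind through the matrix, rose from 137 ± 8.60 to 161 ± 2.67 TPM (0.23, adjusted p 0.0325). These were 2 of 5 genes of that list, whose median was 0.05. Myo18a, an unconventional myosin, rose from 23.3 ± 1.73 to 31.3 ± 3.27 TPM (0.41, adjusted p 0.0232), as 1 of 7 cross-linker and unconventional myosin genes, all 7 of them higher, with a median of 0.19. Sgca, Lamc1 and Myo18a each overlap a row on the other strand and are uncertain on that ground. None of the 4 was called without the filter on low values, and Csrp2 and Lamc1 were also not called without the intensity trend. The call of Csrp2 was lost in 6 of 8 fits with 1 library left out (adjusted p up to 0.0808), that of Sgca in 6 (up to 0.0841), that of Lamc1 in 5 (up to 0.0996) and that of Myo18a in 2, those without cKO replicate 2 or 3 (up to 0.0723).

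No gene was called in the other 3 lists in that line. The 4 genes of serum response factor and its partners had a median of 0.08, and the smallest p was that of Myocd (myocardin), at 43.3 ± 4.02 TPM in controls and 34.6 ± 4.25 TPM in cKO (log2 fold change -0.32, limma adjusted p 0.0885). The 8 genes of non-muscle myosin and its regulators had a median of 0.06 and were led by Ppp1r12a, a subunit of myosin phosphatase (0.16, adjusted p 0.221). The 15 genes of actin assembly had a median of 0.0078 and were led by Cyfip2, of the WAVE complex (0.29, adjusted p 0.173). Myocd and Cyfip2 overlap rows on the other strand. At an unadjusted p under 0.05 these lists held 1, 1 and 3 genes, against 21.1% of all genes. For the exon 2 line 0 of the 46 genes were called by limma, and 2 had an unadjusted p under 0.05, against 0.0763% and 3.21% of all genes. The leading genes of the 6 lists there, Pln, Myocd, Septin8, Abi2, Dst and Lama2, had log2 fold changes between -0.20 and 0.35. The difference between the lines' effects was called for 0 of the 46 by limma, against 2.37% of all genes. Its value was 0.45 for Sgca (limma adjusted p 0.0520), 0.44 for Myo18a (0.0727), 0.20 for Lamc1 (0.289) and -0.24 for Csrp2 (0.269). In the 8 alternatives that kept all libraries, this difference was called in 5 for Sgca (limma adjusted p from 0.0198 to 0.107), in 1 for Myo18a (0.0309 to 0.148), in 1 for Csrp2 (0.0279 to 0.406) and in 0 for Lamc1.

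The control groups of the 2 lines differed for 3 of the 8 genes, against 52.6% of all genes called, and line and batch cannot be told apart here. Myh10 was lower in the exon 2-3 controls, at 165 ± 12.8 against 249.9 ± 12.1 TPM (log2 difference -0.59, limma adjusted p 1.36e-06), as was Utrn, at 21.3 ± 1.81 against 32.7 ± 2.83 TPM (-0.59, adjusted p 1.13e-05). Myl6 was higher there, at 1508 ± 94.5 against 1233 ± 119 TPM (0.29, adjusted p 0.00304). At an unadjusted p under 0.05 there were 4 of the 8, with Pfn1, against 57.7% of all genes. The libraries of the 3 called genes did not overlap between the control groups, against 45.5% of all genes. Over all genes the median difference was -0.14, and it was 0.04 after each library was centred on its median, so directions are relative to the scaling. The 3 calls kept their direction under each scaling tried. For Pfn1 the difference was 0.44 (adjusted p 0.0636), and 0.17 without exon 2 control replicate 4. It was called without exon 2 control replicate 1 or 2, after centring and after rescaling without hemoglobin genes. Lmod1, Csrp1, Cnn2 and Enah differed by between -0.22 and -0.085 without a call as deposited. Csrp1 was called after quantile normalisation and Enah without exon 2 control replicate 2, and the sign of Csrp1, Cnn2 and Enah turned after centring. Of the 46 other genes of the apparatus, 30 were called (65.2%), all lower in the exon 2-3 controls, against 38.1% of all genes called lower. After centring 18 were called lower and 2 higher, against 20.4% of all genes called lower. Cardiomyocyte markers summed to between 11673 and 13088 TPM in the exon 2-3 controls and between 8193 and 9621 TPM in the exon 2 controls, and mesenchymal markers to between 326 and 372 and between 482 and 661 TPM. Single markers did not all follow these sums. Of 6 cardiomyocyte markers 4 were called higher in the exon 2-3 controls, and Hey2 was called lower (-0.28, limma adjusted p 0.00432). Of 7 mesenchymal markers 6 were called lower there, and Dcn was called higher (0.22, limma adjusted p 0.0319). The part of these cell types in the differences between the controls was not tested.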

How the data were processed

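The authors deposited 1 table of TPM values with a column for each of the 16 libraries. Per the submitters' processing notes, FastQC, Trim Galore 0.6.7, HISAT2 2.2.1, StringTie 2.2.1, featureCounts and DESeq2 were used with GRCm38, and which of them gave the TPM values is not given in the sources used here. TPM does not keep read depth, so no counting interval was computed. The labels differ on library preparation (stranded mRNA in one text, ribosomal RNA depletion in another), and whether strand was used in counting is not given. The extraction text names cultured neurons, while the tissue labels name ventricle. The table was held in part (5921 rows, 15.2% to 17.1% of each library's TPM), and 1 incomplete last line was left out. Coordinates equalled RefSeq's on GRCm38.p6 for 5919 rows.

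Groups and replicates came from sample titles. Where nothing says otherwise, p-values measure the spread between these libraries. Values were analysed as log2(TPM + 1) for 2620 genes averaging 1 TPM or more. Separate models, 1 for each line's 8 libraries, used limma 3.58.1 with a variance trend (R 4.3.3). The difference between effects and that between controls came from 1 group means model over the 16 libraries. P-values are two-sided and adjusted by Benjamini-Hochberg over all genes tested, at 0.05. The procedure was also run on simulated data with planted changes and independent noise. That run lacks the scaling and replicate-number structure of the real libraries, and no result here rests on it. Transcripts were compared with minimap2 2.31, and tables and figures were made with Python 3.11.15, pandas 2.3.3 and matplotlib 3.10.9.

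The 8 genes, the 6 lists of the apparatus and the 4 marker lists were chosen with earlier results of these data known. The genes named are the 8, list genes called in a line (up to 4 per list) or else the one with the smallest p, the 3 genes most correlated with a called member, and that member's tested neighbours. Other genes named as results were picked with their values in view, as was the Myl6 to Myh10 ratio. Alternatives tried were another pseudocount, other filters, scalings and fits, the replicate block and each library left out.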

Additional observations from a re-analysis of the deposited data

Results flagged for a closer look

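Myl6 in the exon 2 cKO had 1 library apart from the others: replicate 4, at 1087 TPM, against 1204, 1221 and 1213 TPM in replicates 1 to 3. Its gap to the nearest library was 0.870 of the group's range, above Dixon's critical value for 4 libraries. This was the only such case among 32 groups of 4 examined for the 8 genes, and chance gives about 1 in 20. Without that library the exon 2 difference of Myl6 was -0.019, against -0.058 with it, and it was called in neither case.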

How the results depend on the processing

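The 1 knockout call among the 8 genes, that of Lmod1, was lost in 1 of 8 alternatives that kept all libraries and tested it. With 1 library left out it was lost in 2 of 8 fits, and held in the others at limma adjusted p up to 0.0464. For the other genes of the 8, calls changed only between the controls. Counts over all genes moved more. In the exon 2-3 line, 0 of the 8 were called without a filter on low values, and 0 with a minimum mean TPM of 5, which leaves Lmod1 out of the test. With 1 library left out, between 0 and 1 of the 8 were called there, between 3 and 5 (5 without exon 2 control replicate 2, with Enah and Pfn1) for the controls, and 0 for the exon 2 line and for the difference between the lines. The count of all genes in the exon 2-3 line was 95 without the filter, 311 after quantile normalisation, 272 after rescaling without hemoglobin genes and 343 after centring on the library median, and between 70 and 190 with 1 library left out. Of the called genes, 61.9% were higher in the values as deposited, 50.5% after quantile normalisation and 41.4% after centring. The exon 2 line had 4 called genes in 1 fit over all libraries and between 2 and 4 with 1 library left out. The difference between the lines was called for 133 genes after quantile normalisation, 127 after centring, and between 36 and 84 with 1 library left out, and 67.7%, 53.4% and 52% of its calls were higher as deposited, after quantile normalisation and after centring. For the controls this count lay between 1190 and 1401. Of the genes called between the controls, 27.5% were higher in the exon 2-3 controls as deposited, 39.9% after quantile normalisation and 57.7% after centring. The cause of these changes was not tested.

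Small differences turned sign. After quantile normalisation the values were -0.0034 for Enah in the exon 2-3 line, 0.033 for Myh10 in the exon 2 line (0.0088 after rescaling without hemoglobin genes) and -0.12 for Myl6 in the difference between lines (-0.012 after centring). Centring gave 0.093 for Csrp1, 0.096 for Cnn2 and 0.053 for Enah between the controls. With 1 library left out, Myl6 lay between -0.052 and 0.019 for the exon 2-3 deletion. For the exon 2 deletion Lmod1 lay between -0.16 and 0.088, Myh10 between -0.047 and 0.018, Myl6 between -0.10 and 0.0037, Utrn between -0.085 and 0.013, Myo18a between -0.090 and 0.033, Sgca between -0.067 and 0.015, and Lamc1 between -0.026 and 0.069. The difference between lines lay between -0.081 and 0.0094 for Csrp1 and between -0.021 and 0.085 for Myl6.

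Control and cKO share replicate numbers in each line. Same-numbered libraries did not deviate together throughout in the exon 2-3 line (r between -0.0287 and 0.211). In the exon 2 line every same-numbered r was positive, though low (between 0.0639 and 0.200). The main fits did not treat them as pairs in either line, so a possible pairing in the exon 2 line is left out of those fits. Of the 8 libraries, 7 in the exon 2 line and 2 in the other correlated best with their own number. With the replicate number as a block, 149 genes were called for exon 2-3, 2 for exon 2 and 68 for the difference between lines. The call of Lmod1 stayed (adjusted p 0.0444), and 0 of the 8 were called for exon 2 or the difference between lines. With the block, calls were gained for Myocd (adjusted p 0.0239) and Shisa4 (0.0355) in the exon 2-3 line and for Sgca (0.0331) and Myo18a (0.0309) in the difference, and lost for Col5a2 (0.0513). Those of Shisa4 and Sgca were each gained under 4 other alternatives with all libraries too. The TPM unit keeps no depth, so counting error could not be separated for low genes such as Lmod1.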
